A study of Mus musculus with 12 samples.

Results

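The genes described here are the chemokine ligands and receptors of the mouse: every gene whose array symbol starts with Ccl, Cxcl, Ccr or Cxcr followed by a number, with Cx3cl1 and Cx3cr1 added. The rule uses names and no measured value. It found 48 genes, 32 ligands and 16 receptors, among 18193 genes with a probe set of their own, and 76 probe sets among 45101 on the array. A probe set is the group of short DNA probes that reads 1 transcript. Of the 48 genes, 30 had 1 probe set and 18 had several, up to 5, and where a gene had several, the brightest on average was used.

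The study measured RNA from skeletal muscle, named as the tissue in the series title, with 1 Affymetrix mouse array per animal, and asked what the transcription factors STAT5A and STAT5B do for muscle growth and fibre composition. The 12 arrays formed 4 groups of 3: wild type (WT), knockout of Stat5a and Stat5b (KO), WT given growth hormone (GH), and KO given GH. One label on the treatment speaks of blood cells lacking both genes while the title speaks of muscle, and no Cre driver, strain, sex, age, GH dose or duration is given in the sources used here. Nothing pairs the arrays, and whether every array is a separate animal rests on the animal numbers in the titles. Values are MAS5 signals, a linear measure of brightness scaled so that every array has the same trimmed mean of 500.

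The targeted genes were lower on every KO array than on every WT array of the same treatment: mean Stat5b signal in KO was 15.2% of that in WT without GH and 20.2% with GH, and mean Stat5a signal was 40.6% and 40.2%. Muscle fibre genes were above background on all arrays for 10 of 10 genes on the list, with a median signal of 51800. None of the 10 was called with GH in WT and 8 fell in KO, but with quantile normalization 2 rose and 2 fell in KO, and with median centring 9 fell in each genotype; their summed signal was 552100 to 565700 in WT, 491000 to 643000 in KO, 412600 to 582100 in WT with GH and 404500 to 425800 in KO with GH. Of 6 smooth muscle and pericyte markers tested, 3 rose with GH in WT and 5 in KO (1 and 3 with median centring), with sums of 14820 to 17760 in WT, 15220 to 16320 in KO, 20300 to 22770 in WT with GH and 21190 to 21990 in KO with GH. Of 4 adipocyte markers 2 fell in each genotype, with sums of 38110 to 55300 in WT, 37660 to 62620 in KO, 34230 to 36710 in WT with GH and 34110 to 36750 in KO with GH. The part of these cells in the GH differences below was not tested. Arrays with GH differed from those without in technical readings as well. The poly-A control transcripts, added before labelling, had a geometric mean signal of 443.8 to 468.7 with GH against 131.7 to 169 without, and the beta-actin ratio of 3 prime to 5 prime probe sets was 0.887 to 1.01 against 0.805 to 0.864. Median array signal was 97.4 to 101.8 with GH and 79.3 to 92.4 without. Every array with GH lay outside the range of those without GH on these readings, so GH and whatever set these readings cannot be told apart in any comparison of GH with no GH.

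Chemokines are small secreted proteins that bind heparan sulfate on vessel walls and steer white blood cells along a gradient. They act through receptors of the G protein-coupled type, which signal through Gi proteins and are switched off by receptor kinases and arrestins. CXC ligands with a glutamate-leucine-arginine motif, such as CXCL1 and CXCL2, draw neutrophils through CXCR2. Many CC ligands draw monocytes, eosinophils or T cells. CXCL12 and its receptor CXCR4 hold blood precursor cells in bone marrow and guide muscle precursor cells, and in muscle chemokines are known as products of fibroblasts, endothelium, macrophages and the fibres themselves. Several ligand genes lie side by side. In the order of the RefSeq gene table, Ccl2, Ccl7, Ccl11, Ccl12, Ccl8 and Ccl1 are 6 neighbours on chromosome 11, as are Ccl5, Ccl9, Ccl6, Ccl3 and Ccl4, a run of 5. Cxcl3, Cxcl15, Cxcl1 and Cxcl2 are 4 neighbours on chromosome 5.

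Promoter sequence from RefSeq (build GRCm38.p6) was at hand for 35 of the 48 genes. It came as 39 windows of the 250 bases before a listed start, since a few genes had several. Both strands were searched for the letters TTCNNNGAA, which STAT factors bind, for GGG, any 2 bases and TTTCC, which NF-kB binds, and for GNACA, any 3 bases and TGTNC, which the glucocorticoid receptor binds. Overlapping matches were all kept. The STAT letters stood in 4 of the 39 windows (10.3%; Ccl17, Ccr1l1, Ccr6 and Cxcl14), and in 7.02% of all 32851 windows of the table. The NF-kB letters stood in 6 of 39 (15.4%; Ccl20, Ccl9, Ccr3, Cxcl1, Cxcl2 and Cxcl3), against 1.41% of all. The glucocorticoid receptor letters stood in 0 of 39, against 0.387% of all. For the matches in Ccl17, Ccr6, Cxcl14 and Ccr3, the listed start differs from the start of the gene in RefSeq. A match is a description of the letters in this window only, and no binding was measured.

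The sequences shown are those of the neutrophil-attracting ligands Cxcl1, Cxcl2 and Cxcl3, which carry the same letters and were chosen after their values were seen. Of the other genes with the NF-kB letters, Ccl9 passed in no comparison, and Ccl20 and Ccr3, like Cxcl3, were above background on no array. No link between these letters and the values was tested. They are read 5′ to 3′ on the gene's own strand, ending at the base before the start, with matches in capitals. Cxcl1 lies at chr5:90890995-90891244 (plus strand), Cxcl2 at chr5:90903649-90903898 (plus strand) and Cxcl3 at chr5:90785851-90786100 (plus strand), and their capitals mark the NF-kB letters.
Cxcl1: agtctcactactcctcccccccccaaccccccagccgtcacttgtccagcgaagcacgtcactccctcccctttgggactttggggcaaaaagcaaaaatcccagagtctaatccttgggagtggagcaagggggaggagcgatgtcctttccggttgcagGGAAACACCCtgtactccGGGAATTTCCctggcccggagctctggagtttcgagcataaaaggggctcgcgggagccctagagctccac
Cxcl2: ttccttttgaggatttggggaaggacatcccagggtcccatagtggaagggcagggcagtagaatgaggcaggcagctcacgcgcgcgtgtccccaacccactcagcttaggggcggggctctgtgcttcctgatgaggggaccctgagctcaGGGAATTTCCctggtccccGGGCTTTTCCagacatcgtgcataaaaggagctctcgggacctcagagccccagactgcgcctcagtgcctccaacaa
Cxcl3: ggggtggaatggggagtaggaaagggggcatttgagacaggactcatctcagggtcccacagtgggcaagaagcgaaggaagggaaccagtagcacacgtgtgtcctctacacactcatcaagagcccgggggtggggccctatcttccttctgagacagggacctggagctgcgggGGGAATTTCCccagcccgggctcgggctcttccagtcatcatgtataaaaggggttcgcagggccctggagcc
The same 10 letters, GGGAATTTCC, began 71 bases before the start of Cxcl1, 97 before that of Cxcl2 and 73 before that of Cxcl3. Cxcl1 had a second match, GGAAACACCC, the reverse strand form, from 89 bases before its start, and Cxcl2 had GGGCTTTTCC from 78 bases before. In Cxcl14, the 1 gene called between genotypes, the STAT match TTCTGAGAA began 191 bases before the start given in the promoter table. That window lies within the gene as the RefSeq gene table bounds it, so its sequence is not shown. The signals of Cxcl1, Cxcl2 and Cxcl3 differed widely, as given below.

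Which chemokine genes were measurable was judged against genes that muscle does not use. On each array the background was the 95th percentile of the signals of 125 probe sets for olfactory, taste and vomeronasal receptors, defensins and genes of placenta and germ line. It lay between 88.8 and 101.6 on the arrays with GH and between 70.8 and 113.2 on those without, the highest being KO array 3. A gene was taken as above background in a group when it was above it on all 3 arrays. By this measure 21 of the 48 genes (43.8%) were above background in at least 1 group, against 61.9% of all genes and 5 of the 110 genes that set the background. The number of genes per group was 15 in WT (31.2%, against 58.6% of all genes), 16 in KO (33.3%, 57.5%), 14 in GH-treated WT (29.2%, 56.6%) and 16 in GH-treated KO (33.3%, 57.7%).

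Ligands were measurable more widely than receptors. On all 12 arrays above background were 10 ligands and no receptor: 10 of 32 ligands against 0 of 16 receptors, together 20.8% of the genes against 53.5% of all genes. In at least 1 group 4 receptors passed: Cxcr4, Cxcr3, Ccr1 and Ccr2. On no array above background were 16 genes (33.3%, against 28.5% of all), 7 ligands and 9 receptors, with signals from 1.30 to 95.6. Among them were Cxcr2, the neutrophil receptor for CXCL1 and CXCL2, Ccr3, the eosinophil receptor, Ccr7, which guides cells to lymph nodes, and Cx3cr1, the receptor of patrolling monocytes. The others were Ccl1, Ccl20, Ccl22, Ccl3, Cxcl15, Cxcl3 and Cxcl5 among the ligands, and Ccr1l1, Ccr8, Ccr9, Cxcr5 and Cxcr6 among the receptors. A further 11 genes were above background on some arrays but in no group: Ccl17, Ccl2, Ccl5, Ccl7, Ccr10, Ccr4, Ccr6, Cxcl10, Cxcl11, Cxcl17 and Cxcl9. Leaving out KO array 3, the array with the highest background, gave 25 genes above background in at least 1 group. A group that lost an array needed only its remaining arrays to pass, so that count could rise but not fall.

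**Figure D1:**
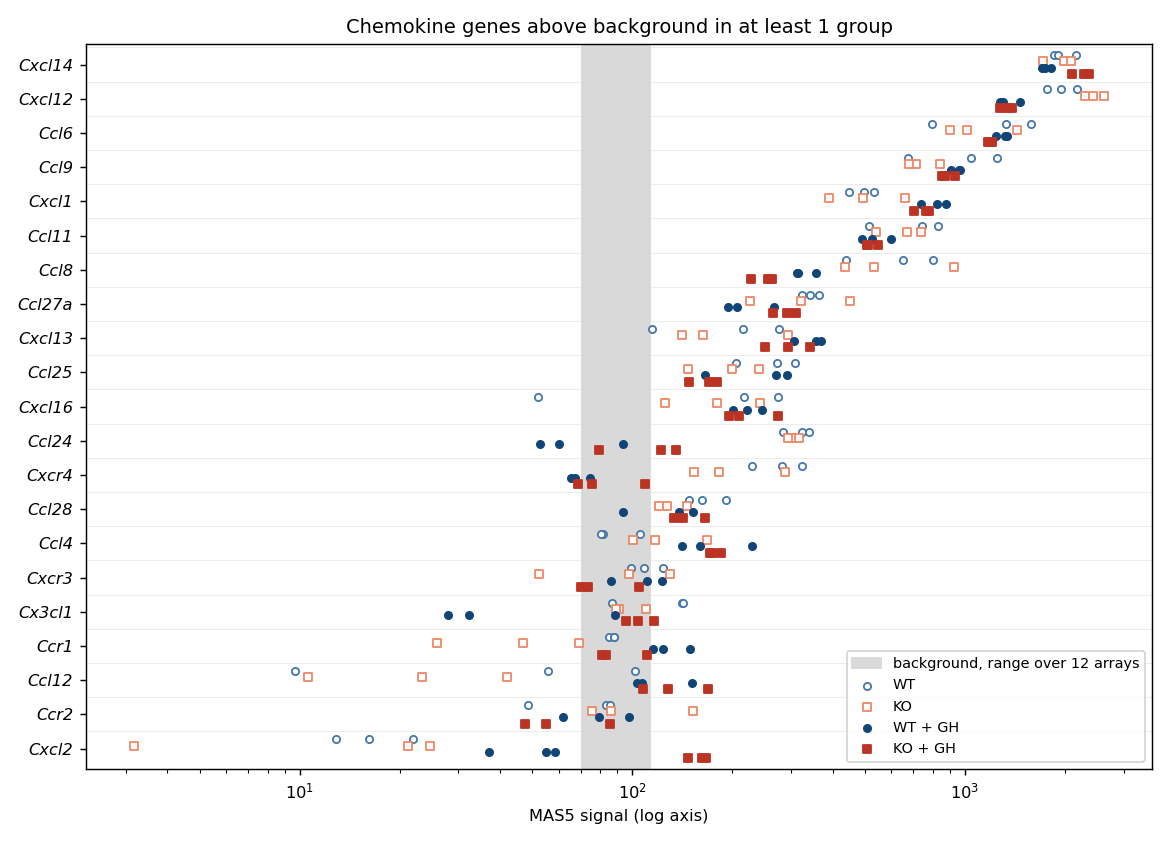
Signal of the 21 chemokine genes above background in at least 1 group, on each of the 12 arrays (log axis, MAS5 signal; open symbols without GH, filled with GH, blue circles WT, red squares KO; grey band, background range over the arrays, 70.8 to 113.2). Cxcl14 and Cxcl12 lie above 1000 on every array, Ccl24 and Cxcr4 go from above the band to near or below it with GH, and Cxcl2 lies above the band in KO with GH alone.

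The brightest probe set was that of Cxcl14, a ligand made by many epithelia. Its signal was 1858, 1911 and 2162 in WT, 1989, 2090 and 1714 in KO, 1737, 1711 and 1814 in WT with GH, and 2105, 2368 and 2284 in KO with GH. Cxcl12, made by stromal and endothelial cells, was next, between 1273 and 2619. Signals of different probe sets depend on the probes, so this order describes brightness and not the amount of RNA per gene. Ccl6 and Ccl9, neighbouring macrophage ligands of rodents, lay between 798 and 1579 and between 673 and 1249. Their spread was widest without GH: Ccl6 was 1579, 798 and 1327 in WT and 1338, 1318 and 1244 in WT with GH. The other 6 genes above background on all arrays were Cxcl1, Ccl11, Ccl8, Ccl27a, Cxcl13 and Ccl25.

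For tests, genes whose mean log2(signal + 25) over the arrays was above 6.253, the 40th percentile of probe sets, were kept: 12654 of all genes, and 27 of the 48 chemokine genes, 21 ligands and 6 receptors. Ccr4 (6.29) and Ccl17 (6.29) lay just inside, and Cxcl9 (6.24) and Cxcl10 (6.19) just outside. The test was limma's moderated test over all genes kept, with p adjusted by Benjamini-Hochberg and a threshold of 0.05. Differences are on the log2(signal + 25) scale, which understates changes of dim genes, and are given ± their standard error. One gene above background in a group, Cxcl2, was not kept, because it was dim in 3 of the 4 groups. Its levels are given as a description.

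With GH, 9 of the 27 chemokine genes tested changed in WT (33.3%, against 19.1% of all genes tested). Of these 2 rose (7.41%, against 7.33% of all) and 7 fell (25.9%, against 11.8%). In KO 8 changed with GH (29.6%, against 24.3%), of which 3 rose (11.1%, against 8.93%) and 5 fell (18.5%, against 15.4%). The share that rose was near the background in both genotypes, and in KO so was the share that fell. Ccl24, Cxcr4, Cxcl12, Ccl8 and Cxcl11 fell and Cxcl1 rose in both genotypes, 66.7% of the genes called in WT and 75% of those called in KO. The median difference of the 27 genes was -0.02 in WT and 0.12 in KO, against -0.06 and -0.06 for all genes tested. The arrays of the groups did not overlap for 12 of the 27 genes in WT (44.4%, against 34.3% of all) and 11 in KO (40.7%, against 44.4%). In bulk tissue, a lower level per cell and fewer cells that make the RNA cannot be told apart.

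**Figure D2:**
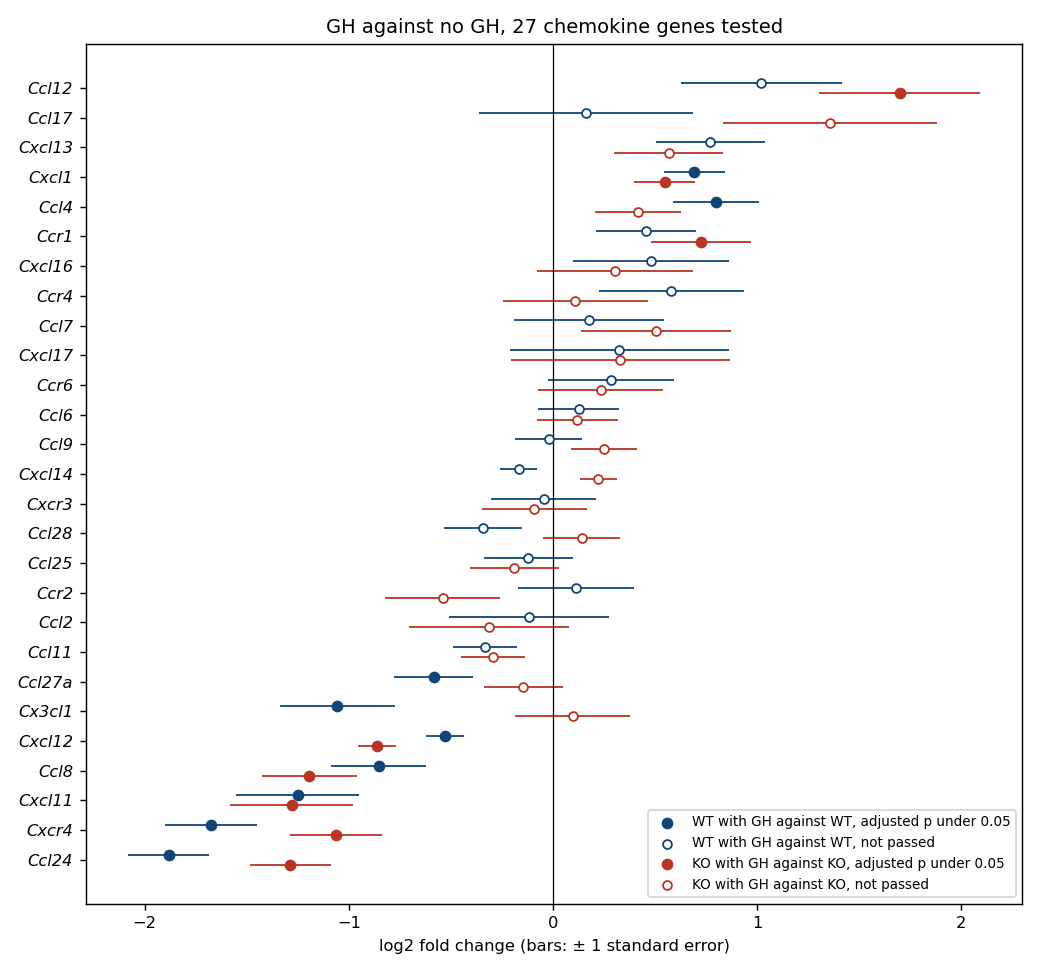
Log2 difference between arrays with and without GH for the 27 chemokine genes tested, in WT (blue) and KO (red), with bars of 1 standard error and filled points for adjusted p under 0.05. Ccl24, Cxcr4, Cxcl11, Ccl8 and Cxcl12 are filled on the left in both genotypes, and Cxcl1 is filled on the right in both.

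Ccl24 (eotaxin-2), made by macrophages and known to draw eosinophils through CCR3, fell in both genotypes. Its signal was 324, 340 and 284 in WT and 52.8, 60.1 and 93.9 in WT with GH. In KO it was 302, 293 and 317, and in KO with GH 79.1, 135 and 122. The groups did not overlap in either genotype, and with GH the WT arrays were all below background while 2 of the 3 KO arrays were above it. The fall was -1.88 ± 0.20 in WT (adjusted p = 1.66e-05) and -1.29 ± 0.20 in KO (adjusted p = 0.000312). Since Ccl24 was not above background in WT with GH, its mean of 316 ± 28.5 (SD, n = 3) in WT, against a measured 68.9 ± 21.9, was at least 3.22-fold higher, with the dim group set at its background as an upper limit. Ccl11 (eotaxin-1), another ligand of CCR3, was 514, 829 and 744 in WT and 490, 599 and 527 in WT with GH, and did not pass (-0.33 ± 0.16 in WT, adjusted p = 0.157; -0.29 ± 0.16 in KO, adjusted p = 0.192). The 4 eosinophil markers on the list (Siglecf, Epx, Prg2 and Il5ra) were above background on no array, and their summed signal was 87 to 131.6 in WT and 83.9 to 136 in WT with GH.

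Cxcr4, the receptor for CXCL12, was the 1 receptor that fell. Its signal was 229, 282 and 323 in WT, 288, 182 and 153 in KO, 67.3, 74.4 and 65.4 in WT with GH, and 68.4, 75.8 and 109 in KO with GH. All arrays with GH lay below all arrays without GH, and only KO with GH array 3 was above its background. The difference was -1.68 ± 0.23 in WT (adjusted p = 0.00014) and -1.06 ± 0.23 in KO (adjusted p = 0.00326). The WT mean of 278 ± 47.4 (SD, n = 3), against a measured 69.1 ± 4.75 with GH, was at least 2.81-fold higher by the same rule.

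Cxcl12, the ligand of CXCR4, was 2179, 1940 and 1761 in WT and 1466, 1278 and 1298 in WT with GH. In KO it was 2294, 2619 and 2425, and in KO with GH 1340, 1273 and 1384. It fell by 0.53 ± 0.09 in WT (adjusted p = 0.00121) and by 0.86 ± 0.09 in KO (adjusted p = 1.32e-05), and no array with GH reached one without. In KO the fall was seen on only 1 of its probe sets above background on all arrays. A second, also above background on all arrays with a mean signal of 1409, gave -0.45 for GH in WT and 0.06 in KO. Another, with a mean signal of 59.6 and above background on 2 arrays, gave 0.14 in WT and -0.18 in KO. With all its probe sets averaged neither call was kept (-0.28, adjusted p = 0.289 in WT, and -0.33, adjusted p = 0.193 in KO). Of 7 fibroblast markers tested, 4 fell with GH in WT and 3 in KO, with a summed signal of 68500 to 73930 in WT and 53440 to 63700 in WT with GH. Of 8 endothelial markers, 2 rose and 3 fell in WT and 1 rose and 3 fell in KO, with sums of 7032 to 8201 in WT and 7204 to 8074 in WT with GH. The part of these cells in the values of Cxcl12 was not tested.

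Among the ligands that draw neutrophils through CXCR2, Cxcl1 rose. Its signal was 498, 534 and 449 in WT, 823, 738 and 878 in WT with GH, 390, 494 and 660 in KO, and 703, 763 and 778 in KO with GH, without overlap between arrays with and without GH in either genotype. The rise was 0.69 ± 0.15 in WT (adjusted p = 0.00462) and 0.55 ± 0.15 in KO (adjusted p = 0.0145). In KO its adjusted p was 0.0658 without KO array 1, 0.0508 without KO with GH array 2 and 0.0535 without KO with GH array 3. Its 3 probe sets did not give 1 picture. The dimmest, with a mean of 122 and above background on 6 arrays, gave 1.67 in WT and 1.77 in KO. The second, with a mean of 275 and above background on all arrays, gave -0.41 in WT and 0.50 in KO. The one used is of the Affymetrix type _x_at and the second of the type _s_at, both left out in an alternative run. The dimmest is of neither type.

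Cxcl2, its neighbour, was above background in KO with GH alone. Its signal was 12.8, 16.1 and 22 in WT, 24.6, 21.2 and 3.18 in KO, 58.5, 55.1 and 37 in WT with GH, and 166, 147 and 161 in KO with GH. It failed the filter and is singled out for being high in that 1 group, so no result of the fit without the filter is given for it. The KO with GH mean of 158 ± 9.8 (SD, n = 3) was at least 1.88-fold higher than that of KO, where 16.3 ± 11.5 was measured. Cxcl3, which has the shared letters, was above background on no array and was 35.9, 47.3 and 26.6 in KO with GH and 5.11, 2.82 and 13.9 in WT with GH. Their receptor Cxcr2 was also above background on no array, with 95.6, 43.1 and 52.6 in WT with GH and 23.5, 12.1 and 9.6 in WT.

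Some markers of neutrophils changed with GH as well. Of 7 neutrophil markers tested, 3 rose with GH in WT: S100a9 by 3.83 ± 0.18 and S100a8 by 3.69 ± 0.31, the alarm proteins of neutrophils, and Ngp, a granule gene, by 1.62 ± 0.19. In KO, S100a9, S100a8 and Csf3r, the receptor of the neutrophil growth factor, rose and Mmp9 fell. The summed signal of the list was 717 to 974 in WT, 583 to 769 in KO, 3236 to 3320 in WT with GH and 1797 to 2019 in KO with GH. Much of the sum with GH was S100a8 and S100a9, with means of 59.4 and 59.6 in WT and 987 and 1164 in WT with GH. Mmp9, the 1 marker above background on all arrays, had means of 278 in WT and 192 in WT with GH. The granule enzyme gene Mpo was above background on no array. What part neutrophils had in the ligand values was not tested.

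**Figure D3:**
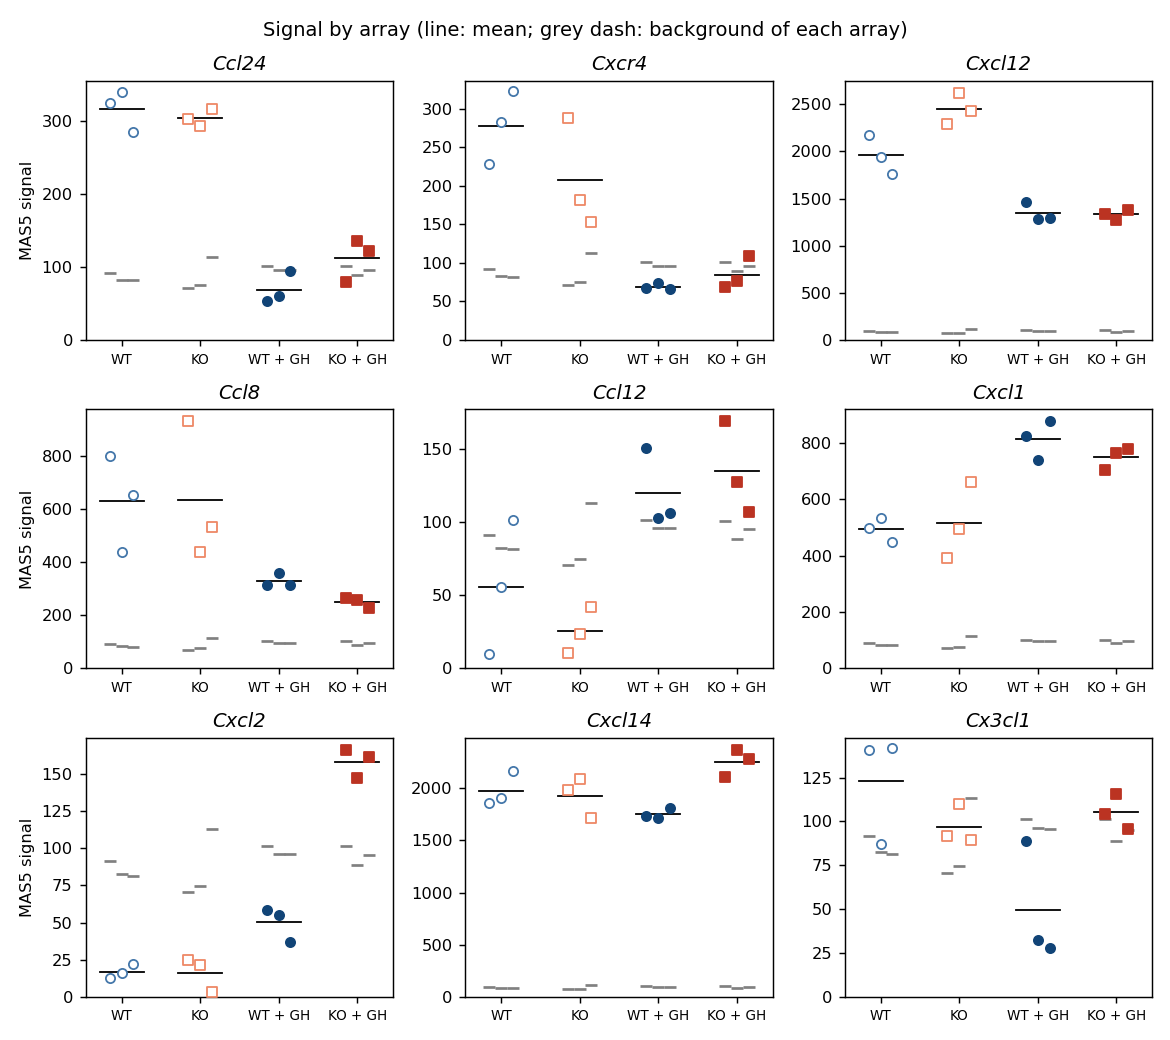
Signal of 9 chemokine genes on each array (linear axis from 0, MAS5 signal; black line, group mean of 3 arrays; grey dash, background of that array). Ccl24, Cxcr4 and Cxcl12 drop with GH in both genotypes, Cxcl1 is higher with GH, Cxcl2 is above background in KO with GH alone at 147 to 166, and Cxcl14 is highest in KO with GH at 2105 to 2368.

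The CC ligand genes Ccl8 and Ccl12, neighbours on chromosome 11, went different ways with GH. Ccl8 fell: 799, 438 and 652 in WT against 313, 357 and 315 with GH, and 930, 437 and 533 in KO against 264, 256 and 228 with GH, again without overlap. The difference was -0.85 ± 0.23 in WT (adjusted p = 0.0195) and -1.19 ± 0.23 in KO (adjusted p = 0.00199). In WT its adjusted p was 0.0744 without WT array 1, 0.0608 without WT array 3, 0.0566 without WT with GH array 1 and 0.0619 without WT with GH array 3. Ccl12 went the other way, from 10.6, 23.4 and 41.9 in KO to 169, 128 and 107 with GH, a rise of 1.70 ± 0.39 (adjusted p = 0.00592). Its KO with GH mean of 135 ± 31.6 (SD, n = 3) was at least 1.57-fold higher than that of KO, where 25.3 ± 15.8 was measured. In WT Ccl12 was 9.66, 55.8 and 102 without GH and 151, 103 and 107 with GH, a difference of 1.02 ± 0.39 that did not pass (adjusted p = 0.085).

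Ccl4, made by macrophages and lymphocytes, rose in WT, from 105, 81.8 and 80.7 to 160, 141 and 229 with GH (0.80 ± 0.21, adjusted p = 0.0156). The adjusted p was 0.0514 without WT array 3 and 0.082 without WT with GH array 3. In KO the arrays did not overlap either, at 117, 100 and 168 against 171, 184 and 173, but the difference of 0.41 ± 0.21 did not pass (adjusted p = 0.167). Ccl2, the main ligand of CCR2, was above background in no group, with 53.8, 119 and 220 in WT and 109, 137 and 74.1 in WT with GH, and its difference was -0.12 ± 0.39 in WT (adjusted p = 0.861). Ccl6 and Ccl9 did not pass, with differences between -0.02 and 0.25 in both genotypes.

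Macrophage markers moved as well. Of 12 tested, 10 were above background on all arrays, 5 fell and 1 rose with GH in WT, and 7 fell and 1 rose in KO. Adgre1, the gene of the F4/80 antigen, fell by 0.93 ± 0.15 in WT and by 0.58 ± 0.15 in KO, and Cd14, the endotoxin co-receptor, rose by 0.61 ± 0.16 and 0.67 ± 0.16. The summed signal of the list was 13180 to 20150 in WT, 12570 to 17320 in KO, 10550 to 10880 in WT with GH and 10330 to 10460 in KO with GH. With each array centred on its median, Cd14 did not pass in WT and 8 of the 12 fell there. The part of macrophages in the values of Ccl24, Ccl8 and Ccl12 was not tested. Mast cell markers, of which 4 of 5 tested fell with GH in both genotypes, had a summed signal of 1980 to 2368 in WT and 987 to 1280 in WT with GH.

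The ligands of CXCR3, which interferon gamma induces and which draw activated T cells, were dim. Cxcl11 was called in both genotypes (-1.25 ± 0.30 in WT, adjusted p = 0.00968; -1.28 ± 0.30 in KO, adjusted p = 0.00653) and did not overlap between arrays with and without GH. It was 92.1, 97.2 and 70.7 in WT, 111, 129 and 111 in KO, 25.3, 6.97 and 38.4 in WT with GH, and 39.5, 46.6 and 18.1 in KO with GH. It was above background on 2 of 3 arrays in WT, on 2 of 3 in KO and on none with GH, hence in no group, and no fold is given. Its second probe set, with a mean of 22.9, gave 0.06 and -0.04. Cxcl9 and Cxcl10 were not tested. Cxcl9 was 51.6, 137 and 50.7 in WT against 4.64, 24.8 and 8 with GH. In KO it was 260, 47.5 and 98.4 against 37, 41.6 and 44.9 with GH. It was above background on 1 array each in WT and KO and on 0 with GH. In the fit without the filter its difference in WT was -1.42 ± 0.43 (adjusted p = 0.0425), but its second probe set gave -0.39 there. Cxcr3 itself was 98.8, 124 and 108 in WT and 123, 86.3 and 111 in WT with GH, and its difference was -0.04 ± 0.26 (adjusted p = 0.925). Of the T and NK cell markers, 3 were bright enough to test, and Cd3g, Cd3d, Cd4, Cd2, Nkg7 and Gzma were above background on no array.

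Other ligands were called in WT alone. Cx3cl1 (fractalkine), a membrane-bound ligand of endothelium, was 141, 87.1 and 142 in WT and 88.9, 32.2 and 27.9 with GH, so the groups overlapped on 1 array each. The difference was -1.06 ± 0.28 (adjusted p = 0.0174), and the adjusted p was 0.0529 without WT array 1, 0.0655 without WT array 3, 0.0684 without WT with GH array 2 and 0.0765 without WT with GH array 3. In KO it was 91.4, 110 and 89.4 without GH and 104, 116 and 95.6 with GH, a difference of 0.10 ± 0.28 (adjusted p = 0.841). Its WT mean of 123 ± 31.3 (SD, n = 3), against a measured 49.7 ± 34, was at least 1.23-fold higher than with GH. Ccl27a, a ligand of CCR10 known from skin, was 365, 342 and 325 in WT and 207, 193 and 267 with GH (-0.59 ± 0.19, adjusted p = 0.0455). That call was lost without any one of 8 arrays: WT 1, WT 2 and WT 3, WT with GH 1 and 2, and KO with GH 1, 2 and 3, with adjusted p between 0.057 and 0.147. In KO the difference of Ccl27a was -0.14 ± 0.19 (adjusted p = 0.633). Its only probe set is of the _x_at type, so the alternative without that type did not test it.

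Cxcl13, the B cell ligand, was 276, 114 and 215 in WT and 357, 369 and 307 with GH, which did not overlap but did not pass (0.77 ± 0.27, adjusted p = 0.0568). In KO its difference was 0.57 ± 0.27 (adjusted p = 0.139). Among receptors, Ccr1, which binds CCL3, CCL5 and their relatives on monocytes and neutrophils, was called in KO. It went from 46.9, 69.3 and 25.8, all below background, to 80.8, 83.1 and 111, of which 1 was above it (0.72 ± 0.25, adjusted p = 0.0425). The call was lost without any one of 9 arrays: WT 2 and 3, KO 1 and 3, WT with GH 2 and 3, and KO with GH 1, 2 and 3, with adjusted p between 0.0508 and 0.154. In WT Ccr1 was 85.2, 88.4 and 88.1 without GH and 149, 116 and 124 with GH, and the difference of 0.45 ± 0.25 did not pass (adjusted p = 0.216). Ccr2, Ccr4, Ccr6 and Cxcr3 did not pass in either genotype, with differences from -0.54 to 0.58.

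A further 6 ligands tested did not pass in either genotype. Cxcl16, a membrane-bound ligand of CXCR6, was 274, 216 and 52.1 in WT and 246, 221 and 201 in WT with GH, so that WT array 3 alone was low. Ccl28, a ligand of mucosal surfaces, was 148, 191 and 162 in WT, 120, 146 and 127 in KO, 93.6, 152 and 138 in WT with GH, and 142, 133 and 166 in KO with GH. Its arrays overlapped between GH and no GH in both genotypes. Ccl25, the ligand that guides T cell precursors to the thymus, was 205, 272 and 309 in WT, 200, 147 and 240 in KO, 270, 292 and 165 in WT with GH, and 180, 148 and 170 in KO with GH, and the groups overlapped in all 4 comparisons. Ccl17, Ccl7 and Cxcl17 were above background in no group. Of these Ccl17, a ligand of CCR4, had a GH difference in KO of 1.36 ± 0.53 (adjusted p = 0.0732).

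**Figure D4:**
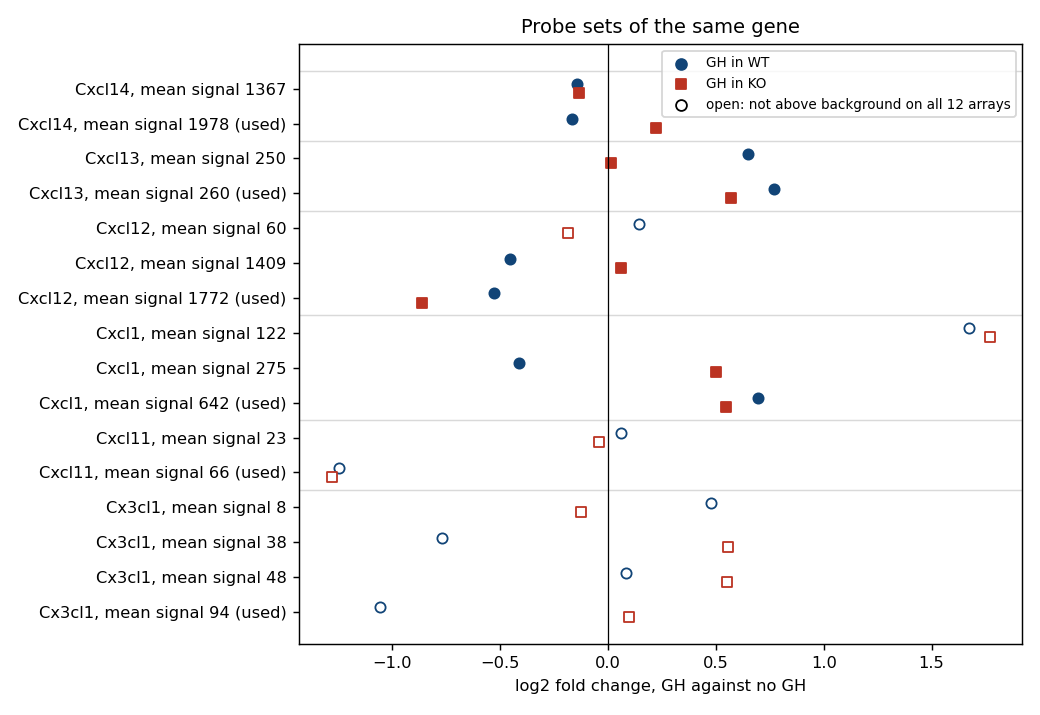
Log2 difference with GH in WT (blue) and KO (red) for each probe set of 6 chemokine genes that have several, with the mean signal in the label and open symbols for probe sets not above background on all 12 arrays. The second probe set of Cxcl12 (mean 1409) lies at 0.06 in KO where the one used lies at -0.86, and the second of Cxcl1 (mean 275) lies at -0.41 in WT where the one used lies at 0.69.

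Between genotypes without GH, 0 of the 27 chemokine genes passed limma's threshold (against 1.45% of all genes tested, 0.774% higher and 0.68% lower), and 3 had an unadjusted p under 0.05. These were Cxcl12, higher in KO (0.32 ± 0.09, adjusted p = 0.131, without overlap of the arrays, with -0.05 from its second probe set), Ccr1, lower (-0.68 ± 0.25, adjusted p = 0.254), and Ccl9, lower (-0.36 ± 0.16, adjusted p = 0.404). The fitted difference was under 1.5-fold for 24 of the 27 genes, and the median was -0.09, against -0.003 for all genes. The arrays did not overlap for 4 of the 27 (14.8%, against 13.2% of all). Leaving out WT array 1 brought Cxcl12 past the threshold, and leaving out WT array 2 brought Ccl9. Of the 21 genes outside the test, 3 did not overlap between genotypes (14.3%, near the 10.2% of the 5539 genes outside it). All 3 were higher in KO, and of the 5539 genes 287 were higher and 279 lower without overlap. These 3 were picked for not overlapping, so their fitted differences are a description and no further support. By group none was above background, though Ccl5 and Cxcl10 each were on 2 KO arrays. They were Ccl1 at 13.1, 24.5 and 26.4 in WT and 44.7, 57.6 and 35.1 in KO (0.61 ± 0.36, adjusted p = 0.675 without the filter), Ccl5 at 36.9, 11.3 and 10.6 in WT and 88.8, 75.1 and 48.9 in KO (1.13 ± 0.32, adjusted p = 0.157), and Cxcl10 at 38.3, 16.6 and 17 in WT and 80.5, 75 and 81.4 in KO (1.11 ± 0.35, adjusted p = 0.223).

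With GH, 1 of the 27 genes differed between genotypes (3.7%, against 4.53% of all genes tested), being higher in KO. Of all genes tested 2.42% were higher and 2.11% lower. Cxcl14 was higher in KO with GH, at 2105, 2368 and 2284 against 1737, 1711 and 1814 (0.35 ± 0.09, adjusted p = 0.0362). All 3 KO arrays lay above all 3 WT arrays. The call was lost without any one of the 6 arrays with GH: the adjusted p was 0.114 without WT with GH array 1, 0.127 without array 2 and 0.0786 without array 3, and 0.0578, 0.169 and 0.139 without KO with GH arrays 1, 2 and 3. A second probe set of Cxcl14, with a mean of 1367 and above background on all arrays, gave -0.05 for the same comparison, and with the mean of both the difference was 0.15 (adjusted p = 0.395). Cx3cl1 (0.89 ± 0.28, adjusted p = 0.0984) and Ccl24 (0.55 ± 0.20, adjusted p = 0.16) were higher at an unadjusted p under 0.05 and did not pass. Cx3cl1 took the place of Cxcl14 past the threshold when WT with GH array 1 was left out. The fitted difference was under 1.5-fold for 25 of the 27, the median was -0.04 against -0.02 for all genes, and the arrays did not overlap for 5 (18.5%, against 30% of all).

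Cxcl2, given as a description for the reason above, had a mean of 158 ± 9.8 in KO with GH against 50.2 ± 11.6 in WT with GH (SD, n = 3 each), at least 1.62-fold higher. In the fit without the filter on dim genes, Cxcl14 did not pass (adjusted p = 0.0518). The neutrophil markers S100a9 and Ngp were lower in KO with GH than in WT with GH, with differences of -0.84 ± 0.18 (adjusted p = 0.0126) and -0.85 ± 0.19 (adjusted p = 0.0174).

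**Figure D5:**
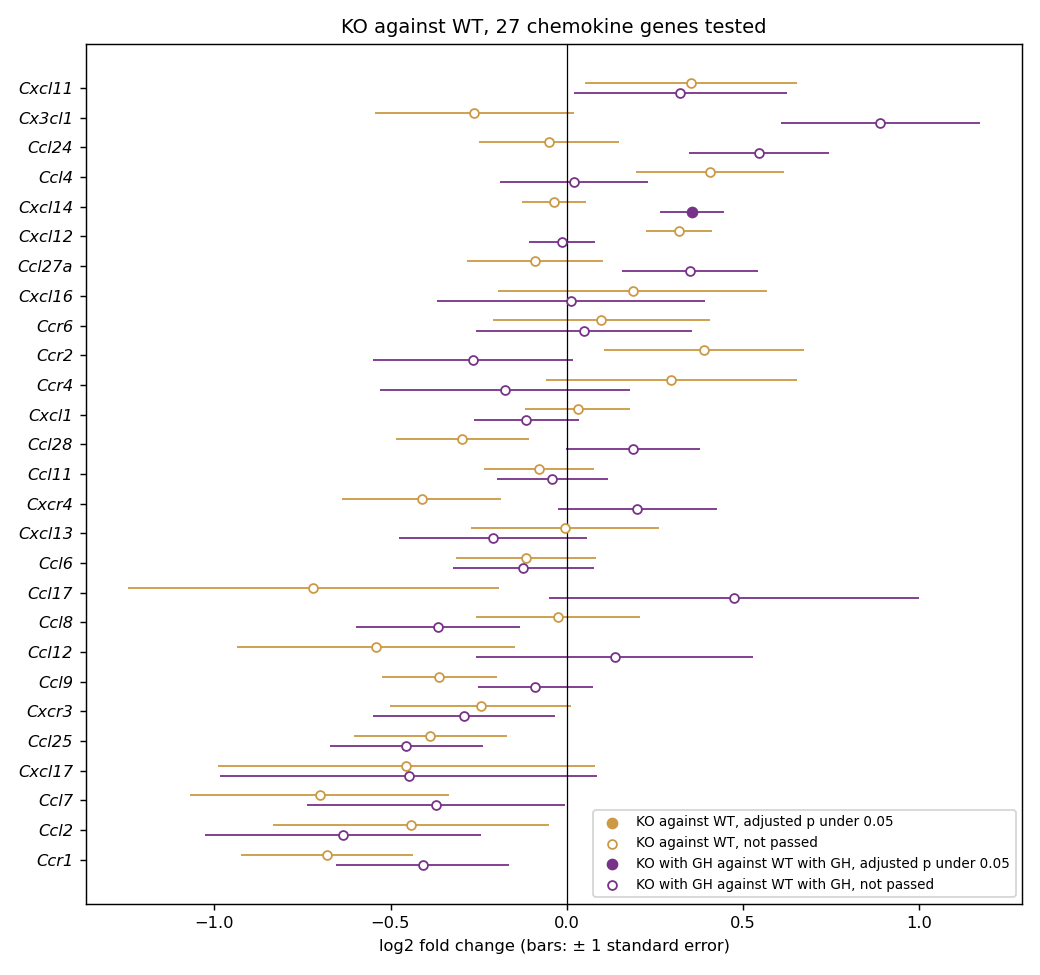
Log2 difference between KO and WT for the 27 chemokine genes tested, without GH (ochre) and with GH (purple), with bars of 1 standard error. Cxcl14 with GH, at 0.35, is the 1 filled point.

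Whether the GH response differed between genotypes was tested by the interaction term, which 0 of the 27 genes passed in limma's test (against 0.933% of all genes, 0.624% higher and 0.308% lower). At an unadjusted p under 0.05 there were 3. For Cxcl14 the GH difference was -0.17 in WT and 0.22 in KO, against -0.14 in each genotype from its second probe set. With the probe set used it was 0.39 ± 0.13 higher in KO than in WT (adjusted p = 0.263). For Cx3cl1 it was 1.15 ± 0.40 higher in KO (adjusted p = 0.291), and for Cxcl12 it was -0.33 ± 0.13, a larger fall in KO (adjusted p = 0.372), while its second probe set gave 0.51, the opposite direction. For Ccl24 and Cxcr4, whose fall was smaller in KO, the difference of the falls was 0.59 ± 0.28 (adjusted p = 0.484) and 0.61 (adjusted p = 0.537).

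The wider chemokine system was read from a list of 10 genes outside the naming rule, 7 of them tested. With GH, 2 rose and 3 fell in WT, and 2 rose and 2 fell in KO. Ackr1, the decoy receptor of venule endothelium that binds many inflammatory ligands without signalling, rose by 1.26 ± 0.11 in WT (adjusted p = 1.79e-06) and by 0.99 ± 0.11 in KO (adjusted p = 1.14e-05). Ackr2, a scavenger of CC ligands, rose by 0.64 ± 0.17 and 0.80 ± 0.17. Pf4, the platelet ligand CXCL4, fell by 0.60 ± 0.09 in WT and by 0.49 ± 0.09 in KO, and Dpp4, a protease that trims CXCL12 and other ligands, fell by 1.07 ± 0.20 in WT (adjusted p = 0.00209). Between genotypes with GH, 1 was higher and 2 were lower in KO: Ackr4 was 0.80 ± 0.21 higher (adjusted p = 0.0429), and Ackr3, the scavenger of CXCL12, was lower (-0.56 ± 0.11, adjusted p = 0.00704), as was Ackr1 (-0.39 ± 0.11, adjusted p = 0.0492). With median centring over all probe sets, and over the genes kept, 1 gene was lower rather than 2.

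Of 15 genes of receptor signalling tested (Gi subunits, receptor kinases, arrestins and others), 1 rose and 4 fell with GH in WT, and 1 fell in KO. Grk5, a kinase that switches receptors off, fell by 0.92 ± 0.14 in WT (adjusted p = 0.0005) and by 0.59 ± 0.14 in KO (adjusted p = 0.0084). Between genotypes with GH, Arrb1, an arrestin, was 0.64 ± 0.15 higher in KO (adjusted p = 0.0248), and Rgs2, which speeds the shut-off of G proteins, was lower (-0.87 ± 0.22, adjusted p = 0.0354). With median centring Rgs2 did not pass there, and 4 of the list fell with GH in KO.

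Genes of NF-kB and inflammatory cytokines were listed as a further pathway. The list mixes parts of the NF-kB pathway with genes that NF-kB induces, such as Nfkbia. Of 19 tested, 5 rose with GH in WT and 4 rose in KO. Icam1, the adhesion molecule that white cells bind on endothelium, rose by 1.64 ± 0.18 in WT and by 0.81 ± 0.18 in KO (adjusted p = 0.0043). Nfkbia, the inhibitor that NF-kB induces, rose by 1.09 ± 0.12 and 0.80 ± 0.12, and Bcl3, a nuclear cofactor of NF-kB, by 1.31 ± 0.19 and 1.04 ± 0.19. Icam1 was lower in KO with GH than in WT with GH (-0.80 ± 0.18, adjusted p = 0.0155). The cytokine genes Tnf, Il1a and Il6, and Sele and Ptgs2, were above background on no array. With median centring 3 of the list rose and 1 fell in WT, and 4 rose and 1 fell in KO.

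Of 13 genes of the interferon gamma pathway tested, 1 rose and 2 fell with GH in WT, and 1 rose and 4 fell in KO. Ifngr1, the ligand-binding chain of the receptor, rose by 0.40 ± 0.11 in WT and by 0.68 ± 0.11 in KO, while Ifngr2, its partner, fell by 0.40 ± 0.07 and 0.41 ± 0.07. Psmb9, an immunoproteasome subunit, fell in KO by 0.82 ± 0.18 (adjusted p = 0.0044). Ifng itself was above background on no array. With median centring Ifngr1 did not pass in WT and 5 of the list fell there.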

How the data were processed

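Per the submitters' processing notes, MAS5 was used for every sample, with version and settings not given in the sources used here. The values the authors deposited are the linear, 1-colour intensity called MAS5 signal, for 12 arrays of 45101 probe sets each. Each array had a mean of 500 without its lowest and highest 2% of probe sets. Detection calls and scanner files were not used here. Left out were 64 control probe sets, 932 with several gene symbols, 4 of them with a chemokine name, and 9160 with none. Array symbols come from the platform annotation.

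From these values log2(signal + 25) was computed, 25 being the pooled 25th percentile. Each gene took the probe set with the highest mean, and genes above the 40th percentile of means were tested, 12654 in all. limma 3.58.1 with statmod 1.5.0 in R 4.3.3 fitted 1 mean per group over all arrays (8 residual degrees of freedom) with a mean trend and robust variance. P-values are 2-sided and adjusted by Benjamini-Hochberg over all genes tested. The fit was tested on simulated data with the spread of all genes tested. For KO against WT without GH it found 47% of 1.5-fold and 68% of 2-fold changes. For the interaction it found 26% and 64%. The median standard error of the 27 chemokine genes was above that of all genes: 0.245 against 0.144 between 2 groups, and 0.346 against 0.203 for the interaction. A value after ± is a standard error for a log2 difference and a standard deviation for a signal. For a gene above background on no array of a group, an "at least" fold sets that group, per array, at the higher of background and its own signal, and compares means of log2 signals. With 3 arrays a group, their number limits the precision, and depth has no meaning for arrays.

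The members and gene lists were chosen with earlier results of these data known. Members past the threshold are named with full statistics, the brightest with levels, and of each list up to 3 genes with the smallest p per comparison. Cxcl2, Cxcl3, Cxcl9, Cxcl10, Ccl5 and Cxcr2 are named as members with their levels. Alternatives covered the pseudocount, filter, scaling, probe set choice, background, variance model, and leaving out each array. P-values measure the spread between these arrays.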

Additional observations from a re-analysis of the deposited data

Results flagged for a closer look

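On the probe set used, the arrays of Cxcl14 lay in opposite directions with GH in the 2 genotypes. All 3 WT arrays with GH were below all 3 without, and all 3 KO arrays with GH were above all 3 without. Neither GH difference passed limma's test (-0.17, adjusted p = 0.221 in WT, and 0.22, adjusted p = 0.0893 in KO). The interaction log2 difference was 0.39 and did not pass limma's test (adjusted p = 0.263). Opposite moves without overlap were found for 105 of 12654 genes (0.83%), and Cxcl14 was the 1 chemokine gene among them. The second probe set of Cxcl14, above background on all 12 arrays, gave -0.14 in WT and -0.14 in KO, the same direction. Its interaction difference was 0.01.

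In all 4 probe sets carry more than 1 gene symbol, among them a chemokine name, and were used in no comparison. Over the 12 arrays 3 of them had mean signals of 769, 1610 and 343, each above background on all 12. The other one was above background on 9 arrays. No gene is named from them here.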

How the results depend on the processing

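No result reversed under the alternatives run. Of 574 results under alternatives, 507 kept direction and side of the threshold (counts, within 1.5 times), 55 gene differences lost the threshold and 12 counts moved. GH in KO called 4 chemokine genes with the filter at the 60th percentile, where fewer genes are tested, and 5 with a gene's probe sets averaged. Of all genes, those runs called 3076 and 2573. KO against WT with GH called 0 chemokine genes with median centring, 0 with plain eBayes and 0 with a gene's probe sets averaged, against 480, 458 and 577 of all genes. Leaving out 1 array gave 21 to 25 genes above background. That count could not fall, since the group needed only its remaining arrays to pass. The same runs called 6 to 10 chemokine genes for GH in WT, against 1628 to 2700 of all 12654 genes tested. For GH in KO they called 6 to 9, against 2073 to 3622. For each comparison of KO with WT they called 0 to 1, against 122 to 249 without GH and 353 to 777 with GH. For the interaction they called 0 to 0, against 76 to 143. For KO against WT with GH, 0 chemokine genes were called without WT with GH array 2 or 3 or without any KO with GH array. WT array 1 and KO array 3 had the highest background of their groups. Without both (chosen after seeing the data), 8 chemokine genes were called for GH in WT and 9 for GH in KO. Of all genes tested, 2947 and 3562 were called. Above background were 26 chemokine genes, again a count that could not fall.

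The calls of Ccl24, Cxcr4 and Cxcl11 for GH in both genotypes, of Ccl12 and Ccl8 for GH in KO, and of Cxcl1 for GH in WT were kept in every alternative that tested them. Cxcl11 was tested in 22 of 24 alternatives, and not with its probe sets averaged. No alternative used only the second probe set of Cxcl1, which gave -0.41 for GH in WT. The call of Ccr1 for GH in KO was lost in 15 of 22 alternatives, of Ccl27a for GH in WT in 12 of 23, of Cxcl14 in 10 of 24 (adjusted p 0.00305 to 0.395), and of Cx3cl1 for GH in WT in 6 of 22. The cause was not tested.

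Scaling shifts all genes. Median centring over all probe sets moved the median GH difference of all genes tested from -0.06 to -0.24 in both genotypes, and the share of higher genes among those called from 38.4% to 11.1% in WT and from 36.7% to 13.3% in KO. Centring over the genes kept (chosen after seeing the data) gave 50.4% and 49.9%. No chemokine call changed direction under either. No paired analysis was possible because the labels give no replicate numbers that groups share. Signal near background limits Cxcl2, Cxcl11, Ccl12, Ccr1 and Cx3cl1.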
